A study of Homo sapiens with 6 samples.

Results

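Small nucleolar RNA host genes are transcription units whose introns carry small nucleolar RNAs (snoRNAs), the guides of chemical modification of ribosomal RNA. The genes described here are those whose symbol is SNHG plus a number (28 genes) together with GAS5, DANCR, ZFAS1, EPB41L4A-AS1 and CYTOR. All 33 were matched by symbol to a gene identifier, among 60609 identifiers per library, without use of any expression value. Their RNA was compared between HEK293 cells carrying CRISPR/Cas9 mutations of both STAT5B alleles (3 libraries) and wild-type HEK293 cells (3 libraries, whose titles carry the unexplained word Sham). HEK293 is a human embryonic kidney line transformed with adenovirus DNA, and STAT5B is a transcription factor activated by cytokine and growth hormone receptors. Knockout clones were selected by sequencing and protein blot, per the labels, which also mention GS knockout clones without explaining the term, and both groups were grown in medium with serum and no other stated treatment. No source used here says that a group's 3 libraries are separate cultures or clones, so the p-values rest on a spread between samples that may be technical. Differences of the selected clones from wild-type cells other than STAT5B cannot be told apart from its loss, and fewer cells of a kind and less RNA per cell cannot be told apart in bulk RNA.

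When a host transcript is spliced, the snoRNA is trimmed out of the excised intron and bound by a protein core. Box C/D snoRNAs direct methylation of ribose, box H/ACA snoRNAs direct conversion of uridine to pseudouridine, and small Cajal body RNAs do the same on spliceosomal RNAs. The spliced exons of many noncoding hosts have little coding capacity and are known targets of nonsense-mediated decay, the pathway that removes transcripts with early stop codons. Many hosts also begin with a run of pyrimidines (C or T in the DNA) like that of ribosomal protein mRNAs, which ties translation, and with it decay, to growth signals.

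RefSeq places 148 named snoRNAs or Cajal body RNAs inside the bounds of the 33 genes. SNHG14, the transcript of an imprinted region of chromosome 15, holds 83 of them and the other members 65, while CYTOR, SNHG27 and SNHG28 hold none with such a name. To show what the genes that moved carry, 1 hosted RNA is printed for each of 10 genes that passed the test described below, from GENCODE release 29 transcripts on GRCh38. They were chosen as the first of that release in the direction of transcription. In the box C/D group, capitals mark TGATGA (box C) within the first 20 bases and CTGA (box D) within the last 20, on the RNA's own strand. In the box H/ACA and Cajal body RNAs, capitals mark ACA within the last 8 bases. SNHG4 also passed the test, but no RNA of it is printed, and its first in that release holds no ACA in that window. Among all snoRNAs of the annotation with such symbols, 65.3% of 314 box C/D RNAs hold TGATGA in that window, 90.8% hold CTGA, and 82.3% of 215 box H/ACA RNAs hold ACA.

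The box C/D RNAs came from SNHG29 (chr17:16439505-16439576, plus strand), SNHG5 (chr6:85677589-85677658, minus strand), ZFAS1 (chr20:49278940-49279028, plus strand) and SNHG26 (chr7:22856613-22856686, plus strand).
SNORD49B: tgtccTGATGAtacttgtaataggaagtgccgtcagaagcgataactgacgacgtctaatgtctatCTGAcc
SNORD50B: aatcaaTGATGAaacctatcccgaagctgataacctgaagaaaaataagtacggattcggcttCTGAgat
SNORD12C: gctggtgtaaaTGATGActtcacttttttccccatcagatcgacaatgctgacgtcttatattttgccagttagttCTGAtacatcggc
SNORD93: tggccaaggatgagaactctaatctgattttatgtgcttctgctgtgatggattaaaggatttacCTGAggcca
The first 3 belong to the genes that were higher in the knockout, and SNORD93, which lacks TGATGA in the window, to one that was lower.

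The box H/ACA RNAs came from DANCR (chr4:52713249-52713370, plus strand), SNHG3 (chr1:28507366-28507571, plus strand), SNHG17 (chr20:38433865-38433998, minus strand), SNHG12 (chr1:28580920-28581056, minus strand) and SNHG7 (chr9:136726747-136726879, minus strand), and the Cajal body RNA from SNHG20 (chr17:77089307-77089493, plus strand).
SNORA26: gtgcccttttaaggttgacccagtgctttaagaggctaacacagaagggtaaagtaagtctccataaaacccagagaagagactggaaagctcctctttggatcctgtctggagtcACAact
SNORA73A: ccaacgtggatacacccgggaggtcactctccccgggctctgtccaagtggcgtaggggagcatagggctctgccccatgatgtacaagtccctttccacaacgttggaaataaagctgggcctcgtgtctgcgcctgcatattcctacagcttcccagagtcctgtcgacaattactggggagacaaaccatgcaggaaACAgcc
SNORA71D: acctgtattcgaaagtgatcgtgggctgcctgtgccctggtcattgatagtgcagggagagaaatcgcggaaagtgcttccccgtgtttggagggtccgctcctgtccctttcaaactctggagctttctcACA
SNORA16A: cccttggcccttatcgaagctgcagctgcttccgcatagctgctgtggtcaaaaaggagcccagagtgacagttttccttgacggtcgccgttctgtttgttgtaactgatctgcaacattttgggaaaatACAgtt
SNORA17A: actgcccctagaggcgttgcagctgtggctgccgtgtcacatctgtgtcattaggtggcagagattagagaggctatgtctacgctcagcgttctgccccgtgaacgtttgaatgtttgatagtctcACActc
SCARNA16: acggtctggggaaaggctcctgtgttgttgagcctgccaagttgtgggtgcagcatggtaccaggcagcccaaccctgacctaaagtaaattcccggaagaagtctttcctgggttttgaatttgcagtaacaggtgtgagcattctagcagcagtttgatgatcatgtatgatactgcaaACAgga
Each of these hosts was lower in the knockout.

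The libraries held 17494958 to 21099813 estimated counts in the knockout and 17686407 to 20279181 in the wild type. STAT5B itself was still transcribed, at 63.1, 61.8 and 60.5 CPM (counts scaled to library size) in the knockout and 70.1, 64.6 and 69.4 CPM in the wild type. The groups did not overlap, and the log2 fold change was −0.14 ± 0.047 (SE; edgeR adjusted p = 0.0468), a call that ended in 13 of 17 alternative settings, among them every removal of a single library but wild-type replicate 2 (adjusted p up to 0.16). A two-sided exact permutation test gave p = 0.1, the smallest possible for 3 against 3, and whole-gene counts do not show a small mutation. Of 9 markers of the HEK293 line 8 were tested, of which VIM rose (not past the threshold without wild-type replicate 1 or 2, with any of the length offsets or on log2 TPM) and NEFM and CDH2 fell, and PAX8 was near 0 in both groups. Blood, endothelial and hepatocyte markers, summed for each kind apart, reached at most 1.1 CPM in the knockout and 1.02 CPM in the wild type. PTPRC, CD3E, HBB, CDH5, TEK, SERPINA1 and CYP3A4 were at 0 in every library. The 6 fibroblast markers summed to 8.55 to 10.7 CPM in the knockout and 8.07 to 11.96 CPM in the wild type. Most of that sum was COL1A1, with means of 8.94 CPM in the knockout and 8.65 CPM in the wild type.

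Expression of the host genes spanned several orders of magnitude, compared here per length as deposited TPM (abundance scaled to transcript length and to the library). SNHG29 was the most abundant, at 922, 891 and 922 TPM in the knockout and 794, 824 and 811 TPM in the wild type. SNHG5 followed with 375, 379 and 401 TPM in the knockout and 292, 316 and 321 TPM in the wild type. For both genes every knockout library lay above every wild-type library. GAS5, which accumulates in growth-arrested cells and can bind the glucocorticoid receptor, had 269, 265 and 260 TPM in the knockout and 224, 251 and 234 TPM in the wild type. SNHG8 had 259, 256 and 231 TPM in the knockout and 236, 235 and 237 TPM in the wild type, so that GAS5 and SNHG8 overlapped each other within the wild type and came close within the knockout. SNHG16 and SNHG6 completed the 6 members that reached 100 TPM in every library, and they overlapped in the knockout, at 118 to 139 and 122 to 140 TPM, but not in the wild type, at 138 to 159 and 135 to 137 TPM. At the other end 8 members stayed under 10 TPM in every library, namely SNHG26, SNHG22, CYTOR, SNHG31, SNHG28, SNHG14, SNHG27 and SNHG18.

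**Figure D1:**
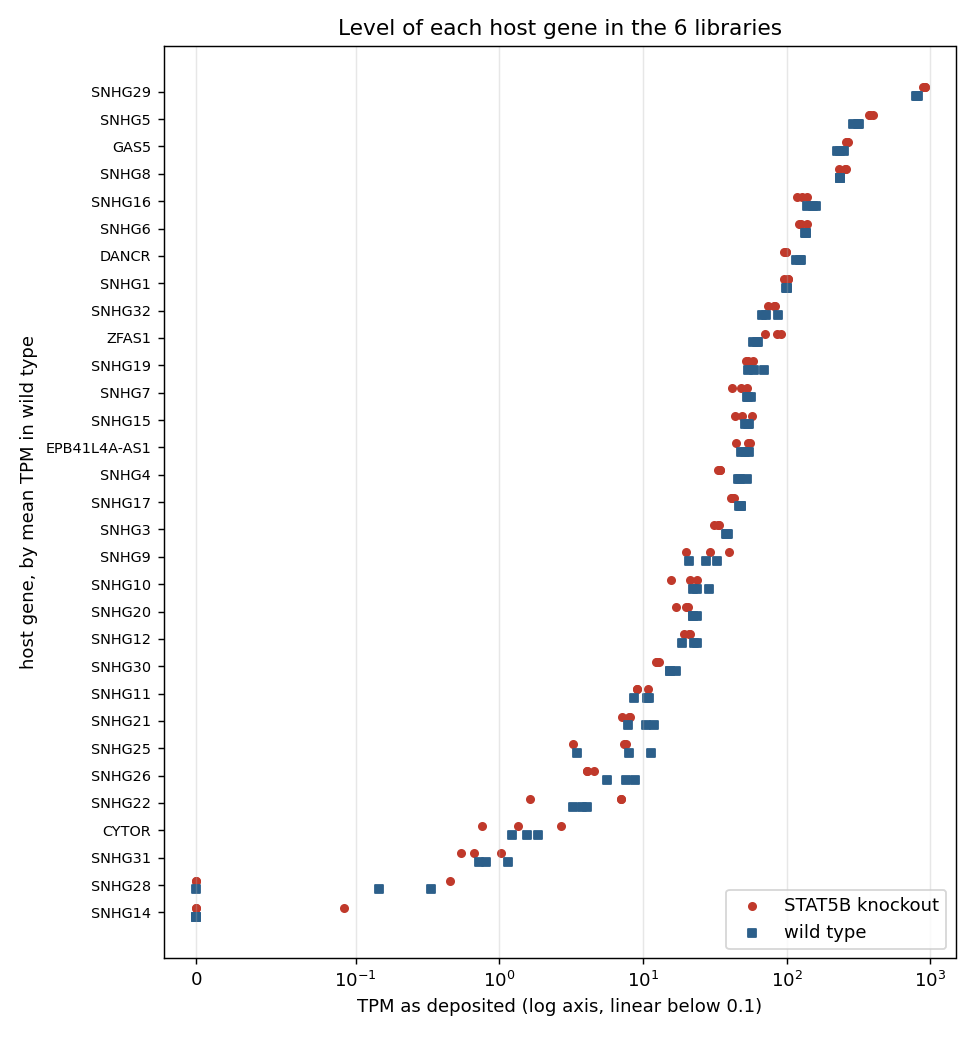
Each row is 1 host gene with a level above 0 in some library, ordered by its mean in the wild type; the x axis is deposited TPM on a log scale that is linear below 0.1. Red circles are the 3 STAT5B knockout libraries and blue squares the 3 wild-type libraries, with SNHG29 at 891 to 922 TPM in the knockout and 794 to 824 TPM in the wild type at the top.

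Summed over all 33 genes, the level was 1468, 1434 and 1401 CPM in the knockout and 1360, 1394 and 1410 CPM in the wild type. The groups overlapped, with means of 1435 ± 33.4 CPM in the knockout and 1388 ± 26.0 CPM in the wild type (SD, n = 3 each). SNHG29 made up 35.6%, 36.1% and 36.5% of that sum in the knockout and 31.6%, 32.2% and 32.0% in the wild type. Without SNHG29 the sum was 945, 917 and 889 CPM in the knockout and 930, 946 and 959 CPM in the wild type, the opposite order of means. The sum of deposited TPM was 2934, 2803 and 2901 in the knockout and 2718, 2757 and 2766 in the wild type, and there the groups did not overlap. Without SNHG29 the TPM sums averaged 1968 in the knockout and 1937 in the wild type with overlapping groups, so the order of means in CPM did not hold in that unit.

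Knockout was compared with wild type to ask which of these RNAs differ between the lines. Of the 28 members with enough reads to test, 3 rose (SNHG29, SNHG5 and ZFAS1), 8 fell (SNHG4, DANCR, SNHG20, SNHG3, SNHG17, SNHG26, SNHG12 and SNHG7) and 17 did not pass an edgeR adjusted p of 0.05. The changes were small, from 0.17 to 0.57 in absolute log2 fold change with a median of 0.26, against a median of 0.25 over all genes that passed. The members' 39.3% stands beside 23.4% of all 15958 tested genes (12.1% higher and 11.4% lower). The median log2 fold change of the tested members was −0.08 and that of all tested genes 0.01. In 14 tested members the CPM of the groups did not overlap, 4 higher and 10 lower in the knockout, where 38.6% of all tested genes did not overlap.

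SNHG29, ZFAS1, SNHG4 and DANCR kept their call under each of 17 alternative settings. The split over all tested members, these 4 included, depended on the setting. It was 3 higher and 3 lower (SNHG4, DANCR and SNHG16) by DESeq2, and 4 higher and 2 lower with offsets from effective length. On log2(TPM + 1) 3 were higher and 5 lower, and with offsets for length and GC content 2 were higher and 9 lower. The number of members that fell was 4 without knockout replicate 2, 3 without knockout replicate 3, 3 without wild-type replicate 1 and 4 without wild-type replicate 2 or 3, while 3 or 4 rose in each case.

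**Figure D2:**
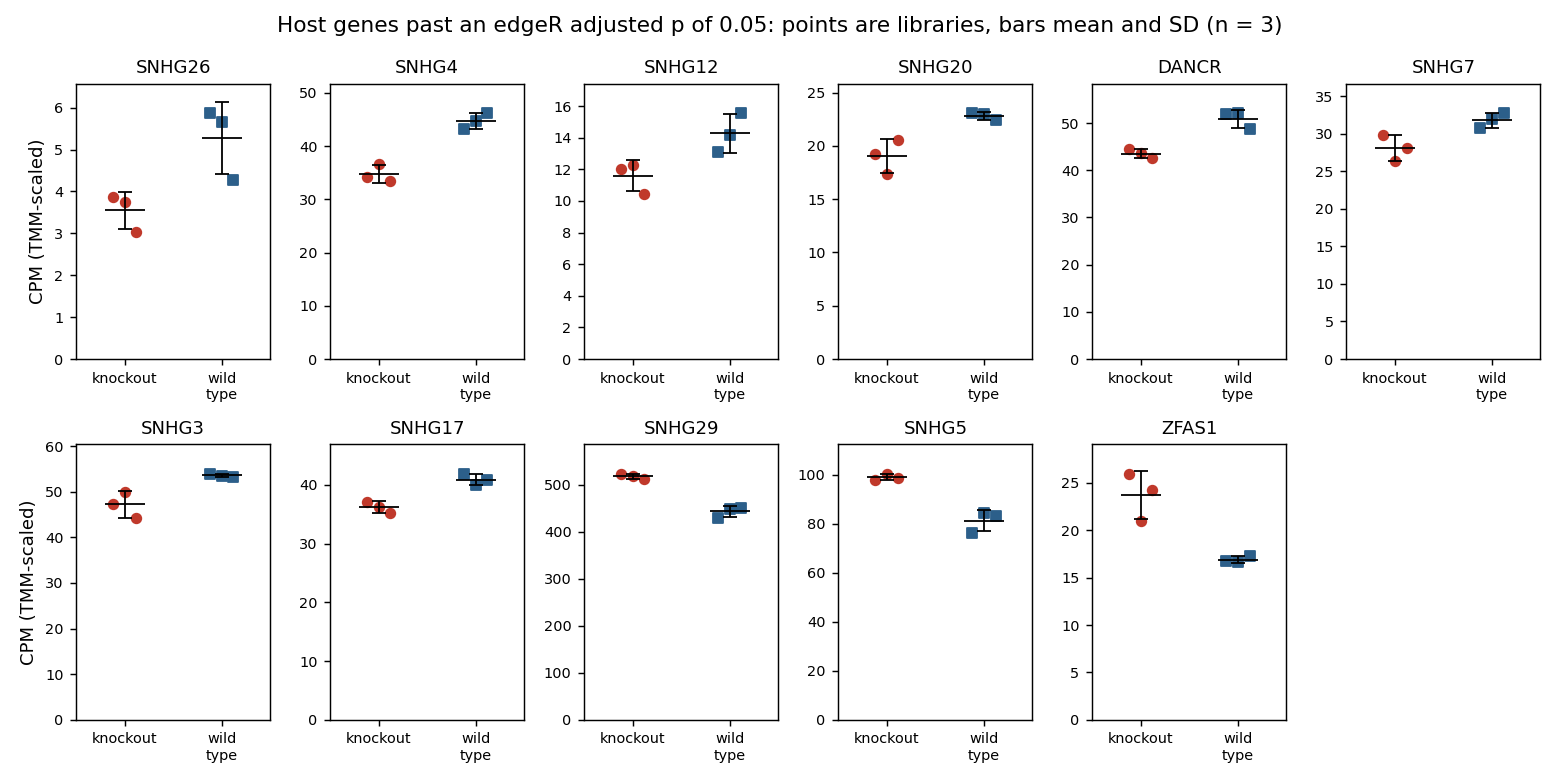
Each panel is 1 of the 11 host genes past an edgeR adjusted p of 0.05, with the y axis in CPM starting at 0, points for libraries and bars for the mean and SD of 3. STAT5B knockout stands left of wild type, and in each panel the groups do not overlap; SNHG26 to SNHG17 are lower in the knockout and SNHG29, SNHG5 and ZFAS1 higher.

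The 3 members that rose are all hosts of box C/D snoRNAs. SNHG29 (ENSG00000175061, chr17:16438822-16478678, plus strand, GENCODE 29 on GRCh38), host of SNORD49A, SNORD49B and SNORD65, had 523, 518 and 512 CPM in the knockout and 430, 448 and 451 CPM in the wild type. The lowest knockout library stood above the highest wild-type library, and the log2 fold change was 0.22 ± 0.031 (SE; edgeR adjusted p = 0.000178). SNHG5 (ENSG00000203875, chr6:85660950-85678748, minus strand), host of SNORD50A and SNORD50B, had 98.0, 100.4 and 98.8 CPM in the knockout and 76.3, 84.3 and 83.1 CPM in the wild type. Again all knockout libraries were higher, by 0.29 ± 0.043 in log2 units (edgeR adjusted p = 0.000319). With the length and GC offsets the SNHG5 value was 0.12 and its edgeR adjusted p 0.0587, the only one of 17 alternatives to end its call (range of adjusted p 3.04e-08 to 0.0587).

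ZFAS1 (ENSG00000177410, chr20:49278178-49295738, plus strand), named for the gene ZNFX1 that it faces and host of 3 SNORD12 snoRNAs, had the largest fold change of the members that rose. It had 26.0, 21.0 and 24.2 CPM in the knockout and 16.8, 16.6 and 17.3 CPM in the wild type. The knockout libraries spread more than the wild-type ones and did not reach down to them, with a log2 fold change of 0.48 ± 0.083 (edgeR adjusted p = 0.000856). ZNFX1, which lies on the other strand with its start 248 bases away, fell by 0.34 in log2 units (SE 0.066, edgeR adjusted p = 0.00221), to 21.0 CPM in the knockout against 26.5 CPM in the wild type. The sources used here do not state strand use in counting, so reads where the genes overlap cannot be told apart.

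One box C/D host fell. SNHG26 (ENSG00000228649, chr7:22854178-22861579, plus strand), host of SNORD93, had 3.86, 3.74 and 3.03 CPM in the knockout and 5.87, 5.66 and 4.28 CPM in the wild type. It was the least abundant of the 11 genes, with 199 estimated counts summed over the knockout and 299 over the wild type, and had the largest change in either direction, −0.57 ± 0.176 in log2 units (edgeR adjusted p = 0.0316). Its call ended without knockout replicate 2 or 3 or wild-type replicate 1 or 2 (edgeR adjusted p of 0.0525, 0.0913, 0.133 and 0.116). With all libraries it ended by DESeq2 (adjusted p = 0.076) and with effective-length offsets (edgeR, 0.0612). The adjusted p ranged from 0.0144 to 0.133 over 17 alternatives.

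The remaining box C/D hosts did not pass the test. SNHG16 (ENSG00000163597, chr17:76557766-76565348), host of 3 SNORD1 snoRNAs, had 184, 169 and 154 CPM in the knockout and 195, 177 and 193 CPM in the wild type. Its groups overlapped and its log2 fold change was −0.16 ± 0.055 (edgeR adjusted p = 0.0532), which passed in 9 of 17 alternatives, among them removal of knockout replicate 1 (0.0112) or wild-type replicate 2 (0.039), within a range of 0.00107 to 0.266. GAS5 (ENSG00000234741, chr1:173863900-173868882), host of 10 box C/D snoRNAs, had 113, 124 and 115 CPM in the knockout and 102, 118 and 109 CPM in the wild type. The groups overlapped (log2 fold change 0.10 ± 0.050, edgeR adjusted p = 0.187), although in TPM they did not, and with effective-length offsets the change was 0.25 with an edgeR adjusted p of 0.0201 (range 0.0201 to 0.974). SNHG1 (ENSG00000255717, chr11:62851988-62855914), host of 8 box C/D snoRNAs, had 90.6, 88.3 and 84.5 CPM in the knockout and 84.4, 91.3 and 90.7 CPM in the wild type. With a log2 fold change of −0.02 ± 0.044 (edgeR adjusted p = 0.826) it was the tested member nearest to 0.

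SNHG32 (ENSG00000204387, chr6:31834608-31839766), host of SNORD48 and SNORD52, had 35.6, 32.3 and 34.3 CPM in the knockout and 29.4, 29.3 and 34.9 CPM in the wild type. Its wild-type replicate 3 lay inside the knockout range, and without that library its log2 fold change was 0.21 with an edgeR adjusted p of 0.0459, against 0.12 and 0.261 with all libraries (range over alternatives 0.0459 to 0.876). SNHG6 (ENSG00000245910), host of SNORD87, had 34.3, 28.9 and 28.9 CPM in the knockout and 29.2, 30.7 and 30.7 CPM in the wild type, a log2 fold change of 0.02 ± 0.071 (edgeR adjusted p = 0.866). The less abundant hosts SNHG30 and SNHG19 had values below 0, SNHG30 with −0.26 ± 0.1 (edgeR adjusted p = 0.0816, passing in 4 of 17 alternatives) and SNHG19 with −0.08 ± 0.130. SNHG30 had 8.18, 8.88 and 8.17 CPM in the knockout and 9.65, 10.7 and 9.84 CPM in the wild type, groups that did not overlap.

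Among hosts of box H/ACA snoRNAs the largest fall was in SNHG4 (ENSG00000281398, chr5:139274102-139284899, plus strand), host of 2 box H/ACA snoRNAs. It had 34.2, 36.6 and 33.4 CPM in the knockout and 43.3, 44.7 and 46.2 CPM in the wild type. The groups were well separated, and the log2 fold change was −0.36 ± 0.056 (edgeR adjusted p = 0.00035). Its bounds overlap those of a MATR3 identifier (ENSG00000280987) on the same strand with a start 350 bases away, and that identifier fell by 0.50 in log2 units (SE 0.155, edgeR adjusted p = 0.0312), so reads from shared sequence cannot be told apart. DANCR (ENSG00000226950, chr4:52712404-52720351, plus strand), an RNA known for holding back differentiation of progenitor cells and host of SNORA26, had 44.4, 43.6 and 42.5 CPM in the knockout and 51.9, 52.1 and 48.7 CPM in the wild type. All 3 knockout libraries were lower, by a log2 fold change of −0.23 ± 0.051 (edgeR adjusted p = 0.00525).

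The other 4 box H/ACA hosts that fell did so by less than SNHG4. SNHG3 (ENSG00000242125, chr1:28505980-28510892, plus strand), host of the 2 SNORA73 snoRNAs that take part in early cleavage of the ribosomal precursor RNA, had 47.37, 50.02 and 44.23 CPM in the knockout and 53.9, 53.5 and 53.3 CPM in the wild type. The log2 fold change was −0.18 ± 0.053 (edgeR adjusted p = 0.0248). The call was kept without knockout replicate 2 and ended without any other single library (edgeR adjusted p of 0.0581 without knockout replicate 1, 0.0729 without knockout replicate 3, and 0.0689, 0.0673 and 0.0601 without wild-type replicate 1, 2 and 3), within a range of 0.00567 to 0.164 over 17 alternatives. With all libraries the SNHG3 call ended by DESeq2 (adjusted p = 0.0523) and with effective-length offsets (edgeR adjusted p = 0.164). SNHG3 shares its start, within 37 bases, with RCC1, the chromatin-bound exchange factor of the GTPase Ran. RCC1 fell by 0.11 in log2 units (SE 0.032, edgeR adjusted p = 0.0248).

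SNHG17 (ENSG00000196756, chr20:38420588-38435353, minus strand), host of 4 SNORA71 snoRNAs, had 37.2, 36.3 and 35.3 CPM in the knockout and 41.9, 40.0 and 40.9 CPM in the wild type. Its replicates were tight in both groups and the log2 fold change was −0.17 ± 0.052 (edgeR adjusted p = 0.0272). The call ended without knockout replicate 2 or 3 or wild-type replicate 1 or 3 (0.0684, 0.0649, 0.0902 and 0.0658 by edgeR). With all libraries it ended by DESeq2 (adjusted p = 0.0972), with effective-length offsets (edgeR, 0.351) and on log2(TPM + 1) (limma, 0.0533). The adjusted p ranged from 0.00767 to 0.351. SNHG11, which lies beside SNHG17 on the other strand and hosts SNORA71E and SNORA60, did not pass, with a log2 fold change of −0.055 ± 0.112 (edgeR adjusted p = 0.771).

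SNHG12 (ENSG00000197989, chr1:28578538-28583132, minus strand), host of 3 SNORA snoRNAs and of SNORD99, had 12.04, 12.24 and 10.46 CPM in the knockout and 13.1, 14.2 and 15.6 CPM in the wild type. The log2 fold change was −0.30 ± 0.097 (edgeR adjusted p = 0.0371). Per length the groups overlapped, with 21.0, 19.2 and 21.4 TPM in the knockout and 18.8, 22.6 and 23.8 TPM in the wild type, and with effective-length offsets the log2 fold change was 0.01 (edgeR adjusted p = 0.975), so its fall rests on the unit. The call also ended without knockout replicate 1 or 3 or wild-type replicate 2 or 3 (edgeR adjusted p of 0.0635, 0.12, 0.0819 and 0.147). With all libraries it ended by DESeq2 as well (adjusted p = 0.114). The adjusted p ranged from 0.0161 to 0.975 over 17 alternatives. TRNAU1AP, which overlaps it on the other strand, rose by 0.35 (log2, SE 0.069, edgeR adjusted p = 0.00228).

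SNHG7 (ENSG00000233016, chr9:136721366-136728184, minus strand), host of SNORA17A and SNORA17B, had 29.8, 26.3 and 28.1 CPM in the knockout and 30.8, 31.9 and 32.7 CPM in the wild type. Knockout replicate 1 came close to wild-type replicate 1, and the log2 fold change of −0.18 ± 0.063 passed by little (edgeR adjusted p = 0.0489). The call ended in 13 of 17 alternatives (adjusted p from 0.0131 to 0.54), among them edgeR without knockout replicate 2 or 3 (0.193 and 0.0764) and without wild-type replicate 1, 2 or 3 (0.0642, 0.116 and 0.143).

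The other 6 box H/ACA hosts did not pass. SNHG8 (ENSG00000269893), host of SNORA24, had 37.21, 35 and 29.49 CPM in the knockout and 31.6, 32.2 and 33.6 CPM in the wild type (log2 fold change 0.06 ± 0.076, edgeR adjusted p = 0.602). SNHG15 (ENSG00000232956), host of SNORA9, had 36.5, 35.1 and 40.1 CPM in the knockout and 37.9, 38.3 and 41.0 CPM in the wild type (−0.07 ± 0.062, edgeR adjusted p = 0.434). In both genes the groups overlapped. EPB41L4A-AS1, host of SNORA13, had a log2 fold change of 0.12 ± 0.098 and SNHG9, host of SNORA78, one of 0.11 ± 0.272, at 17.1 and 2.29 CPM in the knockout and 15.7 and 2.13 CPM in the wild type. SNHG31, host of SNORA70I, had −0.185 ± 0.358 on the log2 scale at 0.929 CPM in the knockout and 1.04 CPM in the wild type, an SE wider than any change in the 11 genes above but SNHG26, ZFAS1 and SNHG4.

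Hosts of Cajal body RNAs were few. SNHG20 (ENSG00000234912, chr17:77086716-77099902, plus strand), host of SCARNA16, had 19.2, 17.4 and 20.6 CPM in the knockout and 23.1, 23.0 and 22.4 CPM in the wild type. It fell with a log2 fold change of −0.26 ± 0.075 (edgeR adjusted p = 0.0208), and so did SEC14L1, a lipid-binding protein gene that overlaps it on the same strand (−0.28 ± 0.044, edgeR adjusted p = 0.000423). The SNHG20 call ended without knockout replicate 1 or 2 or wild-type replicate 1 or 2 (edgeR adjusted p of 0.056, 0.0933, 0.0625 and 0.0646). With all libraries it ended by DESeq2 (adjusted p = 0.069), with effective-length offsets (edgeR, 0.296) and on log2(TPM + 1) (limma, 0.117). The adjusted p ranged from 0.00949 to 0.296. SNHG10, host of SCARNA13, had 13.2, 11.1 and 13.9 CPM in the knockout and 14.11, 14 and 15.36 CPM in the wild type (−0.19 ± 0.097, edgeR adjusted p = 0.184), groups that were separated by a narrow gap. SNHG21 had a log2 fold change of −0.23 ± 0.205 and SNHG22 one of 0.56 ± 0.470. SNHG22 had 1.02, 1.06 and 0.229 CPM in the knockout and 0.564, 0.524 and 0.492 CPM in the wild type, so that 1 knockout library lay below all others. CYTOR, a long noncoding RNA named as a cytoskeleton regulator and with no snoRNA named in it, had 0.909, 0.816 and 1.09 CPM in the knockout and 0.79, 0.682 and 0.738 CPM in the wild type (0.34 ± 0.318, edgeR adjusted p = 0.486).

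The 5 remaining members were not tested for lack of reads. SNHG27 and SNHG18 had 0 counts in every library, which allows up to 0.17, 0.142 and 0.171 CPM in the knockout libraries and 0.17, 0.158 and 0.148 CPM in the wild-type libraries (3 counts of the total; counting error only). SNHG14, which carries the SNORD115 and SNORD116 clusters and is known from neurons, had 1 count in knockout replicate 1 and none elsewhere. SNHG28 had 0, 5.86 and 0 estimated counts in the knockout and 1.46, 5.6 and 0 in the wild type. SNHG25 had 10, 4 and 4 in the knockout and 4, 5 and 6 in the wild type.

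Grouped by the kind of RNA they host, the members gave different counts, a pattern noticed after the values were seen and given without a test. Over all tested genes 12.1% rose and 11.4% fell. Of 11 tested hosts of mainly box C/D snoRNAs, 3 rose and 1 fell, with a median log2 fold change of 0.02 and a range of −0.57 to 0.48. At an unadjusted edgeR p under 0.05, 3 of these were higher and 3 lower. Of 12 tested hosts of mainly box H/ACA snoRNAs none rose and 6 fell by edgeR, with a median of −0.18. No host in that group was higher at an unadjusted p under 0.05, by DESeq2 or by limma-voom. Lower were 6 at that unadjusted p, 2 by DESeq2 and 5 by limma-voom. The number that fell was 2 without knockout replicate 3 or wild-type replicate 3, 3 without wild-type replicate 1 or 2, and 4 without knockout replicate 1 or 2. Of the box C/D hosts, 2 fell without knockout replicate 1 and 0 without knockout replicate 2 or 3 or wild-type replicate 1. Of 4 hosts of Cajal body RNAs, SNHG20 fell and none rose by edgeR (0 higher at an unadjusted p under 0.05 and 0 called by DESeq2), with a median of −0.21. Protein-coding genes with snoRNAs inside them gave other counts. Among 115 tested protein-coding hosts of mainly box C/D snoRNAs 14 rose (9 without wild-type replicate 2) and 25 fell (median −0.02), and among 106 of mainly box H/ACA snoRNAs 26 rose and 19 fell (median 0.03). The balance in the second of these sets depended on the setting, with 18 higher and 19 lower under length-trend offsets and 7 higher and 14 lower on log2(TPM + 1), where its median was −0.04.

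Transcript length and GC content both differed between the same groups. The median deposited length was 872 bases for the box C/D hosts and 1254 bases for the box H/ACA hosts. The median GC content of the longest annotated transcript was 45.1% for the box C/D hosts and 50.6% for the box H/ACA hosts. Over all tested genes the median log2 fold change was 0.13 for the 533 genes under 600 bases, 0.08 from 600 to 1000 bases, 0.06 from 1000 to 1500 bases, 0.03 from 1500 to 2500 bases and −0.04 above. The members had medians of 0.09 and 0.11 in the ranges under 1000 bases (6 genes each) and −0.18 in both ranges from 1000 to 2500 bases (9 and 7 genes). With offsets that remove the length trend of each library, the median was −0.06 for the box C/D hosts, of which 3 rose and 3 fell. For the box H/ACA hosts it was −0.21, and 0 rose and 6 fell. When GC content was added to these offsets, the median was −0.09 for the box C/D hosts, of which 2 rose and 3 fell. For the box H/ACA hosts it was then −0.20, and 0 rose and 5 fell. With effective-length offsets the medians were 0.10 for the box C/D hosts, of which 4 rose and 0 fell, and −0.05 for the box H/ACA hosts, of which 0 rose and 2 fell. On log2(TPM + 1) they were 0.007 for the box C/D hosts, of which 3 rose and 2 fell, and −0.106 for the box H/ACA hosts, of which 0 rose and 3 fell. With the length-trend offsets the log2 fold changes of SNHG29, SNHG5 and ZFAS1 were 0.15, 0.14 and 0.345. Each was still past an edgeR adjusted p of 0.05. Those of SNHG4 and DANCR were −0.40 and −0.33 under the same offsets.

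**Figure D3:**
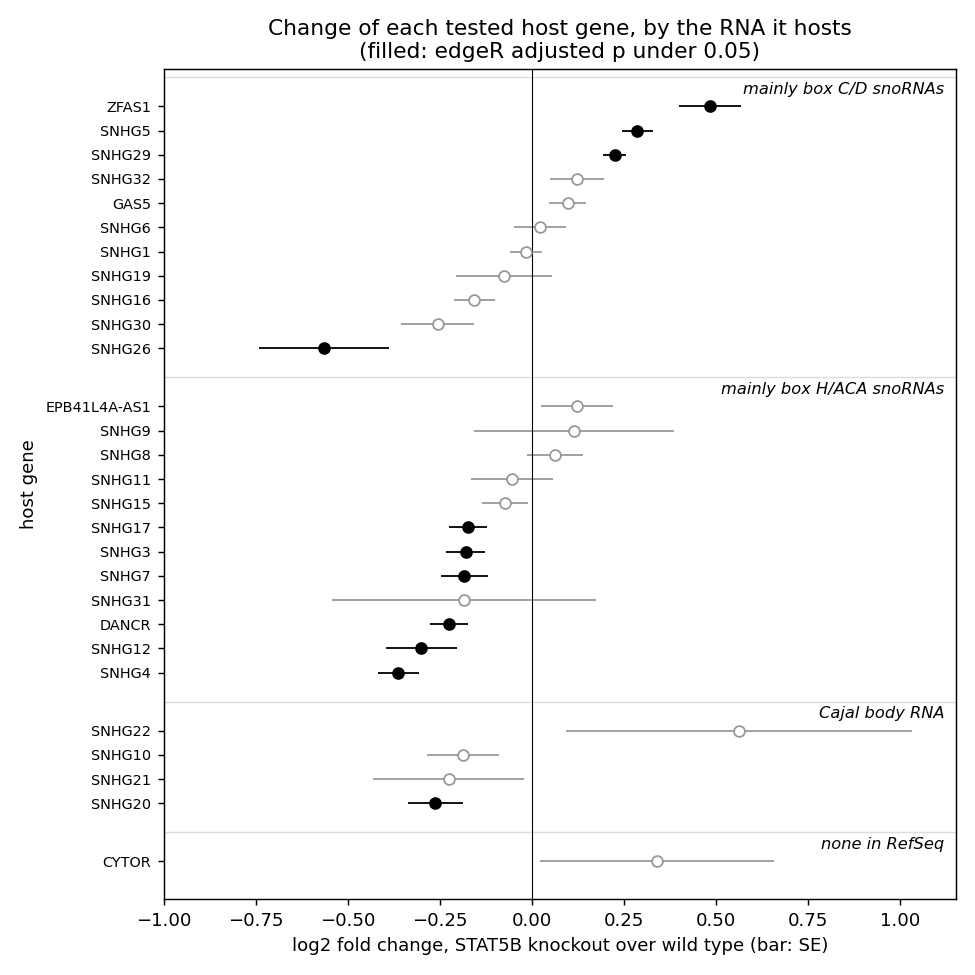
Each row is 1 tested host gene, with its log2 fold change (STAT5B knockout over wild type) on the x axis and a bar of 1 SE, in blocks by the kind of RNA it hosts. Filled points passed an edgeR adjusted p of 0.05, namely ZFAS1, SNHG5 and SNHG29 above 0 and SNHG26 below 0 in the box C/D block, 6 genes below 0 in the box H/ACA block, and SNHG20.

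The snoRNAs themselves could not be followed in these libraries, which were made with a kit for mRNA. Of 552 snoRNA and Cajal body RNA genes in the files, 499 had 0 counts in every library, and the rest summed to 125, 185 and 116 counts in the knockout and 135, 156 and 121 counts in the wild type. Of the 4 that were tested none was called by edgeR, DESeq2 or limma-voom, and 0 had an unadjusted p under 0.05. Inside the members, only SNORA71B of SNHG17 reached 10 estimated counts in a library, with 1, 5 and 10 in the knockout and 8, 7 and 10 in the wild type. The levels above are those of the host RNA and not of its guides.

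The deposited tables give each gene a length per library, which differed between libraries for the same gene. In 6 tested members the groups did not overlap in length, 5 shorter and 1 longer in the knockout. Over all tested genes 10.5% did not overlap, 6.72% shorter and 3.82% longer. GAS5, whose introns are packed with snoRNAs, had 799, 847 and 859 bases in the knockout and 906, 909 and 913 bases in the wild type. SNHG5 had 563, 553 and 558 bases in the knockout and 591, 589 and 581 bases in the wild type. In both genes every knockout library had the shorter value. SNHG12 had 1050, 1120 and 939 bases in the knockout and 1313, 1188 and 1229 bases in the wild type, the widest shift of the 6. SNHG1 had 1455, 1481 and 1426 bases in the knockout and 1499, 1601 and 1558 bases in the wild type. SNHG29 differed by little, with 1020, 1018 and 1021 bases in the knockout and 1035, 1028 and 1050 bases in the wild type. SNHG21 was the longer one, with 782, 736 and 737 bases in the knockout and 711, 730 and 729 bases in the wild type.

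**Figure D4:**
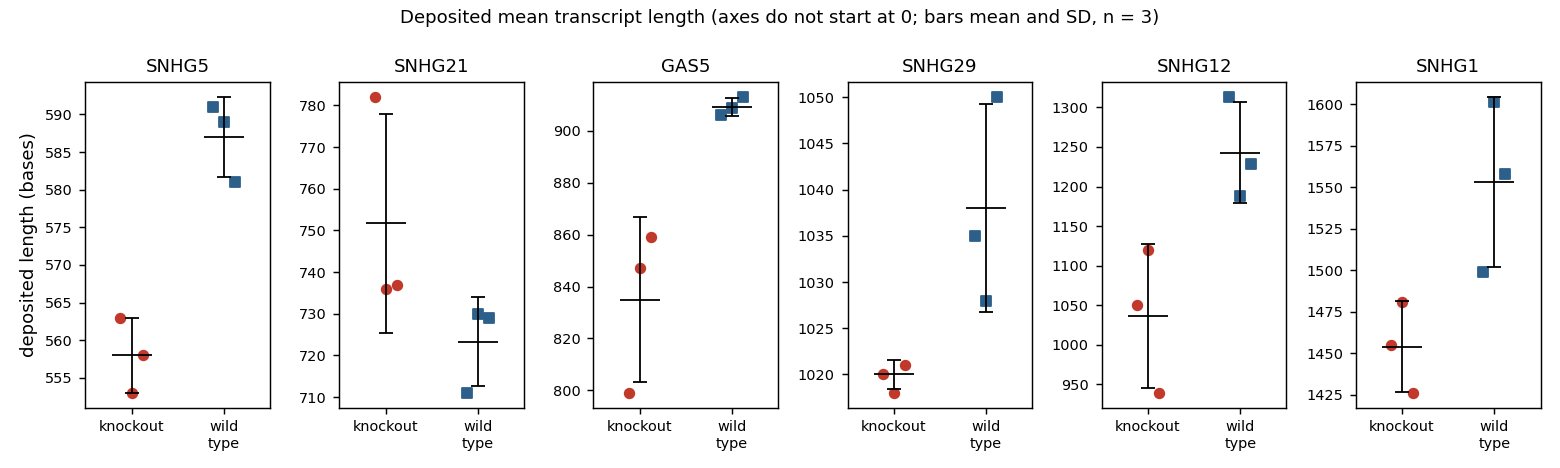
Panels show the 6 tested host genes whose deposited length (y axis, bases; axes do not start at 0) did not overlap between groups, with points for libraries and bars for the mean and SD of 3. STAT5B knockout stands left of wild type and is shorter in each panel but SNHG21, as in GAS5 with 799 to 859 bases in the knockout and 906 to 913 bases in the wild type.

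Each member was set beside the other tested genes whose start lay within 1 Mb. For the 4 genes whose call held in all alternatives, the neighbours of SNHG29 had a median log2 fold change of 0.13, with 8 of 29 higher and 0 lower by edgeR, against 0.22 for SNHG29 itself. The neighbours of ZFAS1 had a median of −0.05 against 0.48, those of SNHG4 0.03 against −0.36, and those of DANCR 0.02 against −0.23. The 5 neighbours of SNHG5 had a median of 0.20 against its 0.29. SNHG20 and SNHG7 also lay among genes with medians on their own side of 0, at −0.15 and −0.10. The same held for SNHG16 and SNHG30, with neighbour medians of −0.11 and −0.19. Neighbours of SNHG3, SNHG12, SNHG17 and SNHG26 had medians of 0.01, 0.01, 0.02 and −0.02. Within 0.5 Mb the medians were −0.067 for SNHG3 and for SNHG12 and −0.045 for SNHG17, on these members' own side of 0, and −0.058 for SNHG20. In that window they were 0.18 for SNHG29, −0.13 for ZFAS1, 0.08 for SNHG4 and 0.00 for DANCR. The part of such regional shifts in the members' values was not tested. The 1574 tested genes of chromosome 1, which holds SNHG3, SNHG12 and GAS5, had a median of 0.15, and GAS5 with 0.10 lay near its neighbours' median of 0.15.

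**Figure D5:**
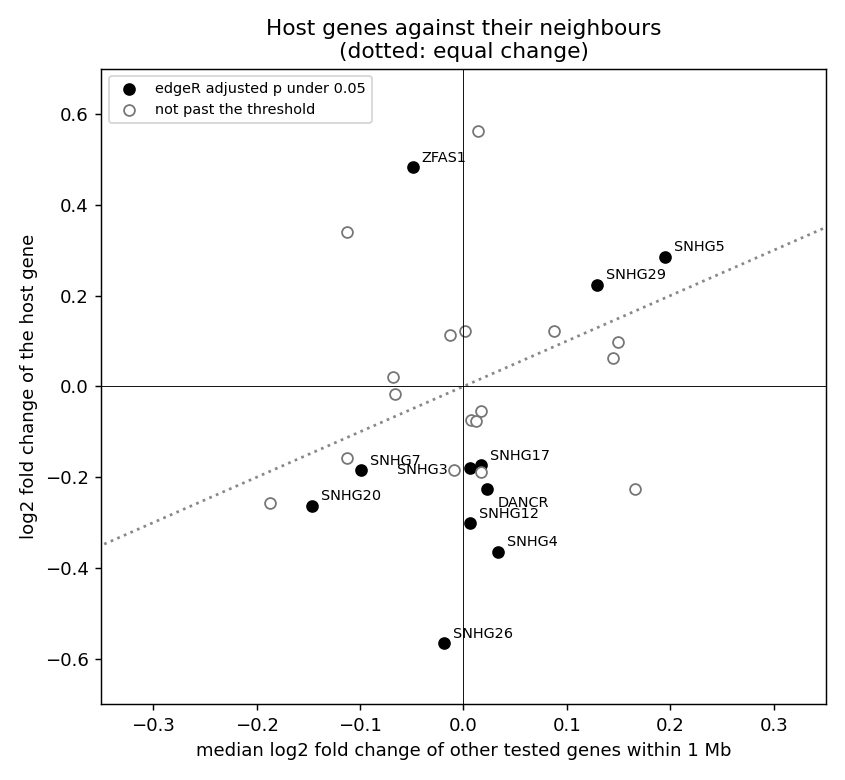
Each point is 1 tested host gene, with the median log2 fold change (STAT5B knockout over wild type) of other tested genes within 1 Mb on the x axis and its own on the y axis; filled points passed an edgeR adjusted p of 0.05 and the dotted line marks equal values. ZFAS1 lies far above the line and SNHG4, DANCR and SNHG26 below it, while SNHG29 and SNHG5 lie above 0 on both axes and SNHG20 and SNHG7 below 0 on both.

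Of 8 tested genes that face a member from the other strand with starts within 2 kb, 1 rose, 3 fell and 4 did not pass. Those counts stand beside 12.1% higher and 11.4% lower over all tested genes. RPS2, a ribosomal protein gene that faces SNHG9, rose by 0.22 (log2, SE 0.030, edgeR adjusted p = 0.000145). ZNFX1, given above, ZBTB37 and TRAF7 fell. ZBTB37, which faces GAS5 with its start 800 bases away, fell by 0.23 (log2, SE 0.058, edgeR adjusted p = 0.00947), and TRAF7, which faces SNHG19, by 0.25 (log2, SE 0.056, edgeR adjusted p = 0.00518). SLC3A2 facing SNHG1 had a log2 fold change of 0.065 ± 0.064, BARD1 facing SNHG31 −0.022 ± 0.072, GLRX5 facing SNHG10 −0.004 ± 0.043 and ACAA2 facing SNHG22 0.122 ± 0.049, with edgeR adjusted p from 0.0913 to 0.962. Among genes that overlap a member with a start farther away, LRRC75A, on the other strand from SNHG29, rose by 0.565 (log2, SE 0.166, edgeR adjusted p = 0.0241). MYO5B, on the other strand from SNHG22, fell by 0.23 (log2, SE 0.068, edgeR adjusted p = 0.0219), and TRNAU1AP and SEC14L1 are given above. These genes were listed by position and described after their values were seen.

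Promoters of 29 members were found in the RefSeq table (GRCh38.p14). A start of C followed by at least 4 bases that are C or T, the form found in ribosomal protein mRNAs, occurred at the annotated start of 7 of them (24.1%), read on the gene's strand, and at 4.02% of 27276 other genes. These were SNHG12, SNHG18, SNHG4, SNHG32, SNHG5, SNHG19 and ZFAS1. SNHG5 and ZFAS1, which rose, and SNHG4 and SNHG12, which fell, are among them, and the 60 bases around their starts are printed with the pyrimidine run in capitals, 30 bases lying before the start. They are from SNHG5 (chr6:85678704-85678763, minus strand), ZFAS1 (chr20:49278612-49278671, plus strand), SNHG4 (chr5:139274071-139274130, plus strand) and SNHG12 (chr1:28581844-28581903, minus strand).
SNHG5: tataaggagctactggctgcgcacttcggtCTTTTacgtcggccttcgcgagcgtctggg
ZFAS1: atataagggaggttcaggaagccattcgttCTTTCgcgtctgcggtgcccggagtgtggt
SNHG4: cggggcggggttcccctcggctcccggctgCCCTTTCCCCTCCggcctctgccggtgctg
SNHG12: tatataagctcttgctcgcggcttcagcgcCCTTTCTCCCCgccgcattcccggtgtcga
An annotated start is not a measured one, and a match is a description of these letters.

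The proteins that bind the guides and other pathway genes were counted as lists, and each count stands beside the 23.4% of all tested genes that passed (12.1% higher, 11.4% lower). Of the 4 box C/D core proteins (FBL, NOP56, NOP58 and SNU13) and the 4 box H/ACA core proteins (DKC1, NHP2, NOP10 and GAR1), none passed by edgeR, by DESeq2 or at an unadjusted p under 0.05, and their median log2 fold changes were 0.05 and 0.03. With the length and GC offsets 1 of the box C/D proteins fell. FBL, the methyltransferase, had 268 ± 4.41 CPM in the knockout and 258 ± 5.90 CPM in the wild type (SD, n = 3 each). Of 20 factors of snoRNA particle assembly and snoRNA processing, 4 rose and 1 fell (median 0.02), a share near that of all genes. NOLC1, a nucleolar and Cajal body protein that binds both kinds of particle, fell to 353 ± 8.25 CPM in the knockout, against 505 ± 7.64 CPM in the wild type (SD, n = 3 each), with log2 fold change −0.52 ± 0.031 (edgeR adjusted p = 2.05e-07). RPAP3, TAF9, NAF1 and RUVBL2 rose by 0.18, 0.20, 0.17 and 0.10 in log2 units (edgeR adjusted p of 0.00522, 0.00732, 0.0428 and 0.046). The number that rose was 3 without knockout replicate 2, 2 without any other single library, 2 by DESeq2 and 0 on log2(TPM + 1), while 1 fell in each of these.

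Of 19 factors of nonsense-mediated decay and of the exon junction complex that marks spliced RNA for it, 2 rose and 5 fell (median −0.04). UPF1, the helicase of the pathway, fell to 153 ± 5.25 CPM in the knockout, against 187 ± 6.57 CPM in the wild type (SD, n = 3 each; log2 fold change −0.28 ± 0.038, edgeR adjusted p = 0.000122). SMG1, the kinase that phosphorylates UPF1, CASC3 and UPF3A fell by 0.24, 0.22 and 0.345 in log2 units (edgeR adjusted p of 0.00142, 0.00199 and 0.0021). MAGOH and RBM8A, which pair within the exon junction complex, rose by 0.38 and 0.16 (edgeR adjusted p of 0.000137 and 0.00285). With effective-length offsets 2 rose and 3 fell.

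Of 50 protein-coding snoRNA hosts listed by name, most of them genes of translation, 18 rose and 8 fell (median 0.04). The wider sets taken by position, given above, had another balance. There 14 rose and 25 fell of 115 mainly box C/D hosts, and 26 rose and 19 fell of 106 mainly box H/ACA hosts. TPT1, RPL27A and RPL4 rose by 0.33, 0.25 and 0.22 in log2 units (edgeR adjusted p of 1.17e-05, 0.000109 and 0.000112). EIF4A2, EIF4G1, TNPO2 and EEF2 fell by 0.39, 0.27, 0.20 and 0.16 (edgeR adjusted p of 6.82e-06, 4.44e-05, 0.000807 and 0.00315). The split depended on length correction, with 9 higher and 14 lower under length-trend offsets, 7 and 15 with GC content added, 16 and 3 under effective-length offsets and 7 and 7 on log2(TPM + 1). Without wild-type replicate 3, 14 rose and 5 fell. Of 28 genes of RNA polymerase I and ribosomal RNA processing, 6 rose and 3 fell (median 0.002). POLR1A, the largest polymerase I subunit, fell by 0.30 (edgeR adjusted p = 3.41e-05), as did POLR1G and NOL6 by 0.255 and 0.16 (edgeR adjusted p of 0.00264 and 0.0277), while UTP4, NOB1, POLR1F and POLR1D rose by 0.25, 0.21, 0.19 and 0.17 (edgeR adjusted p from 0.000235 to 0.00695). Without wild-type replicate 1, 3 rose and 2 fell. In that list 4 rose and 4 fell under length-trend offsets, 4 and 6 with GC content added, 3 and 1 under effective-length offsets, and 0 and 2 on log2(TPM + 1). The lists share some genes, among them NOP56, DKC1 and NCL.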

How the data were processed

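RNA-seq libraries of HEK293 cells, 3 STAT5B knockout and 3 wild type, were grouped by the genotype label. The tools FastQC, fastp, DRAGEN and Picard, and hg38 as build, appear without version or role per the submitters' processing notes. Strand use and annotation release: not given in the sources used here. Per the file headers, each deposited table held a length, an effective length, TPM and an estimated count per gene. The deposited estimated counts were not whole in 7.12% to 7.64% of values (tolerance 1e-06) and were rounded to whole numbers before tests. The TPM values deposited by the authors served for levels and for limma alternatives with pseudocounts of 1 and 0.1. Deposited lengths and effective lengths are in bases and on the authors' own scale.

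Of 60609 identifiers, 42005 had a symbol and 58502 a GENCODE 29 position. Tests used edgeR 4.0.16 in R 4.3.3 (TMM, filterByExpr with a minimum count of 10, quasi-likelihood F test, Benjamini-Hochberg over 15958 genes, threshold 0.05). The biological coefficient of variation was 4.43%. The script was tested on simulated data. Fold changes are knockout over wild type. Replicates differed by more than sampling noise (chi-square per degree of freedom 2.45 to 7.50). The alternatives comprised DESeq2 1.42.0, limma-voom (limma 3.58.1), limma on TPM, RLE scaling, a low-count filter left out or set at 1 CPM in 3 libraries, a replicate block, each library left out in turn, and offsets for effective length, for a length trend, and for length with GC content.

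The members and the gene lists were chosen with earlier results of these data known. Every tested member is named, with values per library for those past the threshold or at 20 CPM or more in a group; values per library of other members were added after they were seen. From each list up to 4 genes past the threshold per direction with the smallest p were named, or all where at most 5 passed; FBL and shared list members were named after their values were seen. Items that the rule would name but that are withheld are not reported here. SnoRNA genes inside a member were named where a library held 10 reads. Hosted RNAs were taken from RefSeq by position, which gives no strand there, so a snoRNA on the other strand is counted too.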

Additional observations from a re-analysis of the deposited data

How the results depend on the processing

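The number of members that rose was 2 to 4 over 17 alternatives, and 3 with the replicate block. Of the 3 that rose and 8 that fell, SNHG29, ZFAS1, SNHG4 and DANCR kept direction and threshold in all alternatives. Over all tested members, 3 fell by DESeq2, 2 with effective-length offsets, 5 on log2(TPM + 1) and 5 on log2(TPM + 0.1). When 1 library was left out, 3 to 6 fell. These counts include members outside the 8. SNHG16 fell by DESeq2 (adjusted p = 0.0255) and without knockout replicate 1 or wild-type replicate 2. SNHG30 fell on log2(TPM + 1) and log2(TPM + 0.1) (limma adjusted p of 0.0431 and 0.0395). All genes called were 1750 with effective-length offsets, 1623 on log2(TPM + 1) and 1622 on log2(TPM + 0.1), against 3742. The summed level kept its sign (log2 ratio 0.03 to 0.07).

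Same-numbered libraries correlated at −0.07, 0.17 and 0.03 in their deviations from the group means, and differently numbered ones at −0.18 to 0.15. With 3 libraries per group these values cannot settle whether the numbers pair the samples. With the replicate block 3660 genes were called, 3 members rose and 7 fell, and STAT5B had −0.14 (edgeR adjusted p = 0.0554).

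The STAT5B call ended with a log2 fold change of −0.14 by DESeq2, −0.14 without the low-count filter, −0.22 with effective-length offsets, −0.12 with length-trend offsets, −0.10 with length and GC offsets, and −0.295 and −0.304 on log2(TPM + 1) and log2(TPM + 0.1), and ranged from −0.175 to −0.12 when 1 library was left out. Length and GC offsets were chosen after seeing the data.

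Sign changed, never past the threshold, in these cases, and the cause was not tested. With effective-length offsets the log2 fold change was 0.009 for SNHG12, 0.098 for SNHG1 and 0.022 for SNHG11. With length-trend offsets it was −0.155 for SNHG8, −0.003 for EPB41L4A-AS1, −0.128 for SNHG6 and −0.138 for SNHG9. With GC added it was −0.026 for GAS5, −0.159 for SNHG8, −0.027 for EPB41L4A-AS1, −0.157 for SNHG6 and −0.067 for SNHG9. On log2(TPM + 1) and log2(TPM + 0.1) it was −0.032 and −0.105 for CYTOR, −0.004 and −0.004 for EPB41L4A-AS1, −0.070 and −0.071 for SNHG6, and 0.007 and 0.007 for SNHG1. When 1 library was left out it ranged from −0.560 to 0.049 for SNHG31 (above 0 without knockout 2 or wild type 3), −0.007 to 0.149 for SNHG8 (below 0 without knockout 1), −0.065 to 0.065 for SNHG6 (below 0 without knockout 1 or wild type 1), −0.054 to 0.007 for SNHG1 (above 0 without knockout 3 or wild type 2), −0.053 to 0.333 for SNHG9 (below 0 without knockout 3 or wild type 3) and −0.158 to 0.010 for SNHG19 (above 0 without wild type 1). CYTOR, SNHG31 and SNHG22 had no value with the stricter filter. By DESeq2 they had log2 fold changes of 0.340, −0.180 and 0.549 but no adjusted p.

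Tested members under 6 CPM had standard errors of 0.18 to 0.47 in log2 units, so depth limits them.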
